A study of Mus musculus with 16 samples.

Results

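The effect of the V338Y substitution in the mitochondrial ribosomal protein MRPS5 was examined in the brain of young adult mice, at 3 months of age. Of the 16 RNA-Seq libraries of the study, 8 belonged to this age and were chosen by the genotype, age and mouse number in their labels. They were 4 wild-type mice, numbered 9, 10, 11 and 12, and 4 mice homozygous for the substitution, MRPS5 V338Y/V338Y, numbered 13, 14, 15 and 16, all on a C57/BL6 background and without further treatment. The other 8 libraries came from separate mice of 19 months, 4 of each genotype, and are used here only to set a 3-month difference beside its later counterpart. Each library was made from 1 mouse. The V338Y mice also carry whatever alleles lie next to the altered Mrps5 on chromosome 2, so the substitution and those neighbouring alleles cannot be told apart by this design.

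MRPS5 belongs to the small subunit of the ribosome inside mitochondria. This ribosome translates the few messages of the mitochondrial genome, all of which encode subunits of the oxidative phosphorylation (OXPHOS) complexes, while the remaining subunits are encoded in the nucleus and translated by cytosolic ribosomes. Substitutions at this position of the protein are known to lower the accuracy of mitochondrial translation. Cells in which mitochondrial proteins misfold often raise a set of ATF4 target genes, the integrated stress response, together with mitochondrial chaperones and proteases.

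The altered codon is shown here with its surroundings, since it defines the genotype. The codon for this residue in Mrps5 (ENSMUSG00000027374, 432 codons) is the valine codon GTC in the reference genome. It lies on the forward strand of chromosome 2, chr2:127602459-127602461 in GRCm38, within the coding part of exon 11 of 12. The capitals mark the codon in the reference coding sequence.
Mrps5 altered codon: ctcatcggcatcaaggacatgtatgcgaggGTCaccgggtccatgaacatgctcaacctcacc

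Expression of Mrps5 itself did not separate the genotypes. Its level was 38.7, 40.7, 40.4 and 41.5 CPM (counts scaled to a common library size) in wild-type mice 9 to 12. It was 42.5, 41.98, 36.2 and 40.9 CPM in V338Y mice 13 to 16, and the groups overlapped. The log2 fold change, V338Y minus wild type, was 0.0033 with a 95% interval of -0.14 to 0.15 (edgeR quasi-likelihood test with Benjamini-Hochberg adjustment, adjusted p = 0.998). Counts per gene do not show the base at the codon, so the genotype of a library was not checked by its sequence.

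The libraries held 7963530 to 14795474 counts in the wild-type group and 13620218 to 19601664 in the V338Y group, and normalization factors lay between 0.992 and 1.01. No pair of libraries was a duplicate. The labels give the tissue as brain, while the study's methods describe cortex that was split from the cerebellum, and an extraction text in the labels names muscle. Cortical markers were high in every library, with Slc17a7, the vesicular glutamate transporter of cortical neurons, at 448 to 568 CPM, and the muscle creatine kinase gene Ckm had 0 to 2 counts. The methods describe female mice, whereas all 8 libraries held the Y-linked Ddx3y at 102 to 131 CPM and only 5 to 20 counts of Xist, so the sex of the mice was the same in both groups but not the one described. Cerebellar transcripts were present in all 8 libraries and differed between them, as described further on.

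Genotype differences at 3 months were few. A gene was tested where 2 or more mice of a genotype had 10 or more counts, which left 16241 genes, and 10 of these differed at an adjusted p under 0.05, or 0.0616% of them. Of these 10, 3 were higher in V338Y (0.0185%) and 7 were lower (0.0431%). An unadjusted p under 0.05 was reached by 815 genes, or 5.02% (385 higher, 2.37%, and 430 lower, 2.65%), where 812.05 would be counted by chance alone. The 4 V338Y values lay entirely above or below the 4 wild-type values in 539 genes, or 3.32% (1.5% above and 1.82% below). At 19 months, 512 of 16420 genes passed the same adjusted threshold (3.12%) and 16.2% had an unadjusted p under 0.05, with no overlap of the groups in 9.35%. The 95% interval of the log2 fold change lay within a 1.5-fold change in either direction for 12256 genes, or 75.5% of those tested. These intervals are not adjusted for the number of genes, so they do not show what size of change would pass the adjusted threshold.

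All 10 genes lay on 2 chromosomes. Eif3j2 and its neighbour Gm3650 are adjacent on chromosome 18, and the other 8 lie on chromosome 2, the chromosome of Mrps5, between 4.85 and 23.5 Mb from its start. By distance, 1 of these 8 was within 5 Mb of Mrps5, 6 were between 5 and 10 Mb, 0 between 10 and 20 Mb and 1, Cd59a, between 20 and 30 Mb. The 10 genes fall into near-identical copies that share reads, overlapping genes of one transcription unit, and single genes, and they are described in that order. None of the 10 encodes a mitochondrial ribosomal protein or an OXPHOS subunit.

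Eif3j1 and Eif3j2 encode nearly the same protein, the J subunit of the translation initiation factor eIF3. Eif3j2 (ENSMUSG00000043424, chr18:43475418-43477796, reverse strand, GRCm38) is a gene of 1 exon. It was at 0, 0.0677, 0.182 and 0.0882 CPM in the wild-type mice and at 9.69, 9.99, 8.35 and 9.52 CPM in the V338Y mice. No wild-type library had more than a few reads of it and every V338Y library expressed it at a like level. No fold is exact against a group at the detection floor of 3 counts per library, and Eif3j2 was at least 33.6-fold higher in V338Y (adjusted p by edgeR = 6.30e-08).

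Its counterpart Eif3j1 moved the other way. Eif3j1 (ENSMUSG00000027236, chr2:122028546-122056598, forward strand) was at 19.8, 21.6, 19.6 and 19.0 CPM in wild type and at 8.91, 7.78, 7.24 and 9.88 CPM in V338Y. All 4 V338Y values were below all wild-type values, and the log2 fold change was -1.24 ± 0.11 (SE, edgeR adjusted p = 0.000213). The coding sequence of Eif3j1 has 783 bases and that of Eif3j2 has 789, and 783 of 789 aligned positions were identical (99.2%). The difference is a run of 6 further bases in Eif3j2 close to the start codon. Of the 50-base stretches of the Eif3j2 transcript, 90.8% also occur in Eif3j1, so the division of reads between both genes depends on how reads were assigned and is uncertain. The sum of both genes was 20.1 ± 1.13 CPM in wild type and 17.8 ± 1.64 CPM in V338Y (mean ± SD, n = 4), a difference that did not pass a two-sided exact permutation test (p = 0.0571, 70 assignments).

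Gm3650 (ENSMUSG00000097891, chr18:43472816-43475169, forward strand), annotated as an unprocessed pseudogene beside Eif3j2, was seen with 0, 0, 0.0912 and 0 CPM in wild type and with 0.5853, 0.927, 1.03 and 1.34 CPM in V338Y. It was near absent from wild type and low in each V338Y library, at least 3.48-fold higher than the floor in wild type (edgeR adjusted p = 0.0149). Eif3j2 and Gm3650 are on opposite strands and do not overlap.

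Mfap1a and Mfap1b, adjacent copies that encode a protein of the spliceosome, have coding sequences that are identical over all 1317 bases. Mfap1b (ENSMUSG00000048222, chr2:121460235-121474067, reverse strand) was at 15.2, 16.8, 13.5 and 15.4 CPM in wild type and at 9.69, 9.43, 9.16 and 9.70 CPM in V338Y. Its groups did not overlap, and it fell with a log2 fold change of -0.68 ± 0.097 (SE, edgeR adjusted p = 0.0144). Mfap1a was at 14.6, 17.2, 18.1 and 16.7 CPM in wild type and at 16.97, 18.9, 19.1 and 18.2 CPM in V338Y, with overlapping groups and a log2 fold change of 0.13 (adjusted p by edgeR = 0.926). The sum of both copies was lower in V338Y, at 27.8 ± 0.773 against 31.9 ± 1.71 CPM (mean ± SD, n = 4, exact permutation p = 0.0286, the smallest that 4 against 4 allows). Because 62.5% of the 50-base stretches of the Mfap1b transcript also occur in Mfap1a, a read from these stretches could have been given to either copy.

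The starts of these coding sequences are shown because the Mfap1 copies are alike there, as over the whole coding sequence, whereas this stretch of Eif3j1 is where Eif3j2 holds its 6 further bases. The first 60 bases are given, with the start codon in capitals, from the GENCODE M21 transcripts. The stretch of Mfap1b is letter for letter that of Mfap1a.
Eif3j1 coding start: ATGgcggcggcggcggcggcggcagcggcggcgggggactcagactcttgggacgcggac
Mfap1a coding start: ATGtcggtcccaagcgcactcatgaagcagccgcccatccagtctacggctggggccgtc
Mfap1b coding start: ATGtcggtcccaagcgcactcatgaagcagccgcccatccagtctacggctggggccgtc

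The genes Jmjd7, Gm28042 and Pla2g4b overlap on chromosome 2. Jmjd7 encodes a JmjC-domain oxygenase, Pla2g4b a cytosolic phospholipase A2, and Gm28042 spans both. Gm28042 (ENSMUSG00000033852, chr2:120027493-120043033, forward strand) was at 8.56, 10.3, 7.29 and 6.52 CPM in wild type and at 2.21, 1.6996, 3.03 and 1.83 CPM in V338Y, a log2 fold change of -1.92 ± 0.21 (SE, edgeR adjusted p = 0.00123). Pla2g4b (ENSMUSG00000098488, chr2:120033417-120043030) was at 7.05, 7.31, 4.01 and 4.94 CPM in wild type and at 1.11, 1.34, 1.77 and 1.22 CPM in V338Y, a log2 fold change of -2.10 ± 0.24 (edgeR adjusted p = 0.0018). Neither gene had overlapping groups, although the wild-type mice spread more widely than the V338Y mice.

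Jmjd7 (ENSMUSG00000098789, chr2:120027483-120032594) was at 3.65, 4.67, 4.74 and 3.44 CPM in wild type and at 1.56, 1.13, 2.07 and 1.04 CPM in V338Y, a log2 fold change of -1.54 ± 0.23 (edgeR adjusted p = 0.0241). Jmjd7 lost its call without any one of wild-type mice 9, 10, 11 and 12 or of V338Y mice 13 and 16. The 3 genes overlap on the same strand, and their reads cannot be counted as 3 separate changes. Their summed level was 18.1 ± 3.33 CPM in wild type and 5.002 ± 1.296 CPM in V338Y (mean ± SD, n = 4). As the groups of each of the 3 genes were already apart, those of the sum had to be, and no test of it is given.

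Haus2, a subunit of the augmin complex that branches spindle microtubules, had the smallest standard error of the 7 lower genes. Haus2 (ENSMUSG00000027285, chr2:120609383-120621560, forward strand) was at 20.8, 23.0, 23.3 and 22.7 CPM in wild type and at 12.4, 14.1, 13.01 and 13.1 CPM in V338Y. The groups were well apart, with a log2 fold change of -0.77 ± 0.083 (SE, edgeR adjusted p = 0.00123). Cd59a, the GPI-anchored protein that blocks the membrane attack complex of complement, lies farthest from Mrps5 (ENSMUSG00000032679, chr2:104095801-104115354, forward strand). It was at 7.30, 7.04, 4.38 and 5.91 CPM in wild type and at 1.63, 1.39, 1.995 and 2.14 CPM in V338Y, with no overlap and a log2 fold change of -1.79 ± 0.21 (edgeR adjusted p = 0.00224). Its paralog Cd59b was below the count filter, and 4.26% of the 50-base stretches of the Cd59a transcript occur in Cd59b. The sum of Cd59a and Cd59b was 6.69 ± 1.43 CPM in wild type and 2.09 ± 0.425 CPM in V338Y (mean ± SD). It mostly repeats the values of Cd59a, whose groups were already apart, so no test of it is given.

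Bloc1s6, which encodes the pallidin subunit of the BLOC-1 complex of lysosome-related organelles, was the only one of the 8 called genes of chromosome 2 to rise. Bloc1s6 (ENSMUSG00000005804, chr2:122738503-122749475, forward strand) was at 21.2, 24.3, 21.0 and 21.1 CPM in wild type and at 33.6, 36.8, 30.7 and 33.7 CPM in V338Y. All V338Y mice were higher than all wild-type mice, with a log2 fold change of 0.62 ± 0.082 (SE, edgeR adjusted p = 0.00796). Without wild-type mouse 9, 11 or 12, Bloc1s6 did not pass the threshold, and Mfap1b did not without wild-type mouse 9, 10 or 12. Gm3650 did not pass without any 1 of the 4 wild-type mice.

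**Figure D1:**
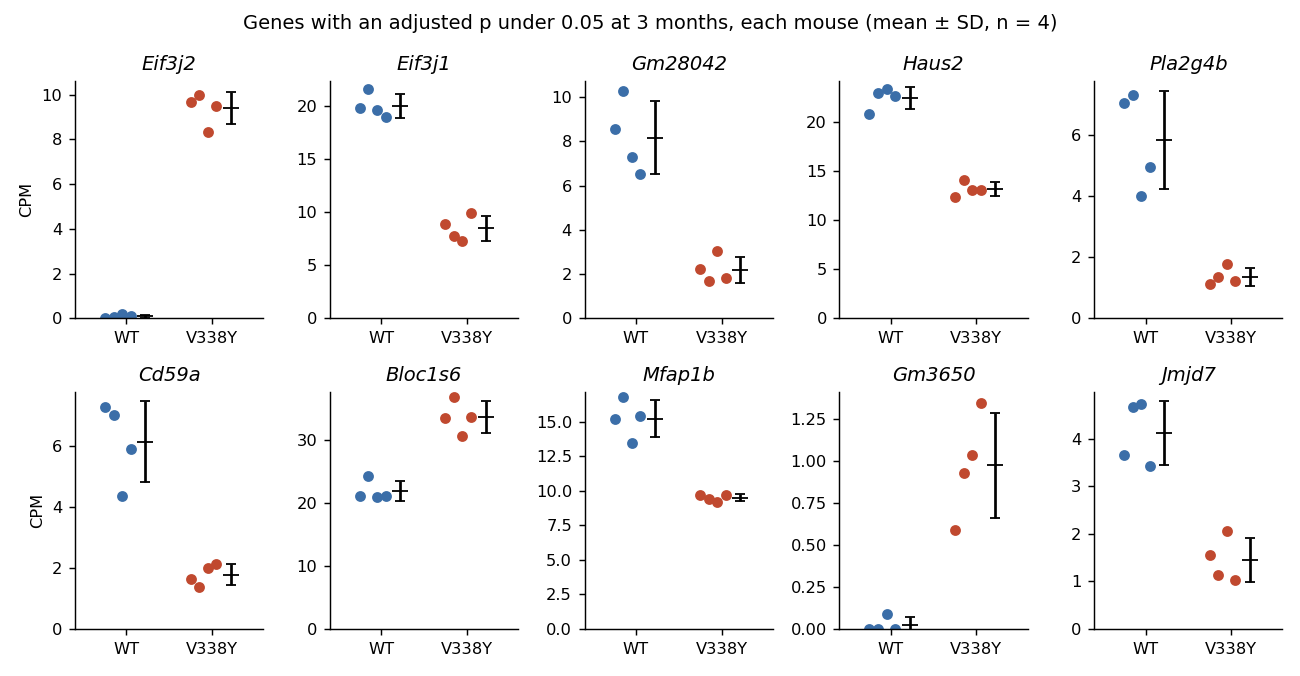
Expression in CPM (linear axes from 0) of the 10 genes with an adjusted p under 0.05, for each wild-type (WT, blue) and V338Y (red) mouse at 3 months; crosses and bars give the mean and SD of 4 mice. The groups do not overlap in any panel, and Eif3j2 and Gm3650 are close to 0 in wild type.

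The same 10 genes were measured in the separate mice of 19 months, where each was again past the adjusted threshold and in the same direction. Eif3j2 was at 0 to 0.235 CPM in wild type and at 5.92 to 7.47 CPM in V338Y at this age. The log2 fold change was -1.29 for Eif3j1, -2.06 for Gm28042, -2.57 for Pla2g4b, -1.68 for Jmjd7, -0.77 for Haus2, -0.65 for Mfap1b and 0.45 for Bloc1s6. Cd59a was lower by -0.82 on the log2 scale at 19 months (edgeR adjusted p = 0.0148), where its groups overlapped. For Cd59a the difference between both ages was 0.99 on the log2 scale and was not significant (interaction, edgeR adjusted p = 0.244).

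Upstream sequences are given for 3 of these genes, 2 that share reads with a copy and the one farthest from Mrps5, so that the region at which each transcript starts can be seen. They come from RefSeq promoters of GRCm38.p6 and run up to the annotated start, with bases that overlap an exon left out. Capitals mark matches, on either strand, to the CCAAT box, to the TATA box with the letters TATAAA or to the GC box with the letters GGGCGG. Of 32851 promoters with 250 upstream bases, 33.8% held CCAAT, 12.4% held TATAAA and 32.7% held GGGCGG. Eif3j1 (chr2:122028330-122028545, forward strand) held 5 matches to GGGCGG, some of which overlap one another. Mfap1b (chr2:121474068-121474273, reverse strand) held 1 match to CCAAT and 1 to GGGCGG, and Cd59a (chr2:104095551-104095800, forward strand) held none.
Eif3j1 upstream: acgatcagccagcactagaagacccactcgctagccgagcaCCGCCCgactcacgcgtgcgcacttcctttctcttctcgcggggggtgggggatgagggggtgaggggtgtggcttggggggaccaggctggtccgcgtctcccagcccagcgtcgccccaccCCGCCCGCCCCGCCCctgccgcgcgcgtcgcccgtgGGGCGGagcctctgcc
Mfap1b upstream: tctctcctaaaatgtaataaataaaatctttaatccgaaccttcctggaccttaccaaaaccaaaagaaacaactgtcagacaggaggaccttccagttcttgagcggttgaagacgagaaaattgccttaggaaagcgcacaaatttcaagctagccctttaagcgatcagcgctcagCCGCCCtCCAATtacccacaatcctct
Cd59a upstream: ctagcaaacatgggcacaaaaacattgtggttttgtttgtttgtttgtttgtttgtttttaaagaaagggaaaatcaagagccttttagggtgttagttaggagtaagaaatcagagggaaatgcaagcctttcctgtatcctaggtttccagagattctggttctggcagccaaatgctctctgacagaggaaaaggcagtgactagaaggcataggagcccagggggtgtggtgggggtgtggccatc

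The share of genes with small p-values was higher around Mrps5 than elsewhere. Within 20 Mb of its start, 307 genes were tested, 7 passed the adjusted threshold and 62 had an unadjusted p under 0.05 (20.2%, against 5.02% of all genes). The groups did not overlap for 46 of the 307 (14.98%, against 3.32% of all genes). The share with an unadjusted p under 0.05 was 17.1% within 5 Mb, 33.0% between 5 and 10 Mb, 7.41% between 10 and 20 Mb, 10.3% between 20 and 30 Mb and 3.73% on the rest of chromosome 2. It was 4.72% on the other chromosomes together.

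The direction of these differences was shared with the older mice near Mrps5. Of the 61 genes within 20 Mb that had an unadjusted p under 0.05 at 3 months and were tested at 19 months, 53 differed in the same direction there (86.9%), and 29 passed the adjusted threshold there. Of the 687 such genes that lie on other chromosomes, 275 had the same direction (40.03%), and 31 passed the adjusted threshold at 19 months. The libraries of both ages come from separate mice, so no control sample is shared.

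Apart from the called genes, 8 genes within 20 Mb of Mrps5 had an unadjusted p under 0.001 at 3 months, and none of them passed the adjusted threshold in the main fit. Each of the 8 passed it in 5 or 6 of the 17 or 18 alternative settings run for it, DESeq2 among them. Of the 26 genes called with DESeq2, 16 lay within 20 Mb of Mrps5, as did 307 of all 16241 genes tested. Pcna, the sliding clamp of DNA replication, was at 30.1, 29.9, 31.3 and 31.3 CPM in wild type and at 23.2, 22.5, 21.0 and 24.2 CPM in V338Y, the closest to a call (log2 fold change -0.43, edgeR adjusted p = 0.0556). B2m, the light chain of MHC class I, was at 48.6, 54.5, 47.2 and 53.1 CPM in wild type and at 43.8, 37.9, 31.4 and 36.9 CPM in V338Y (log2 fold change -0.44, edgeR adjusted p = 0.282). Fahd2a, the nearest of them at 0.151 Mb before the start of Mrps5, was at 16.5, 17.8, 16.8 and 16.7 CPM in wild type and at 23.9, 22.8, 25.1 and 21.2 CPM in V338Y (log2 fold change 0.45, edgeR adjusted p = 0.11). In all 8 genes the groups did not overlap.

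The remaining 5 were spread in both directions. Fam227b was near absent from wild type, at 0 to 0.474 CPM, and at 1.26 to 2.14 CPM in V338Y. Mapkbp1, a JNK-binding protein, had a log2 fold change of 0.40. Spint1, an inhibitor of serine proteases, had a log2 fold change of -1.21, the DNA helicase gene Mcm8 one of -0.87 and the neuronal inositol trisphosphate kinase gene Itpka one of -0.36. At 19 months, Pcna, B2m, Fahd2a, Fam227b, Mapkbp1 and Spint1 passed the adjusted threshold in the same direction, whereas Itpka was at -0.04 (edgeR adjusted p = 0.74) and Mcm8 at -0.25 (edgeR adjusted p = 0.487).

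**Figure D2:**
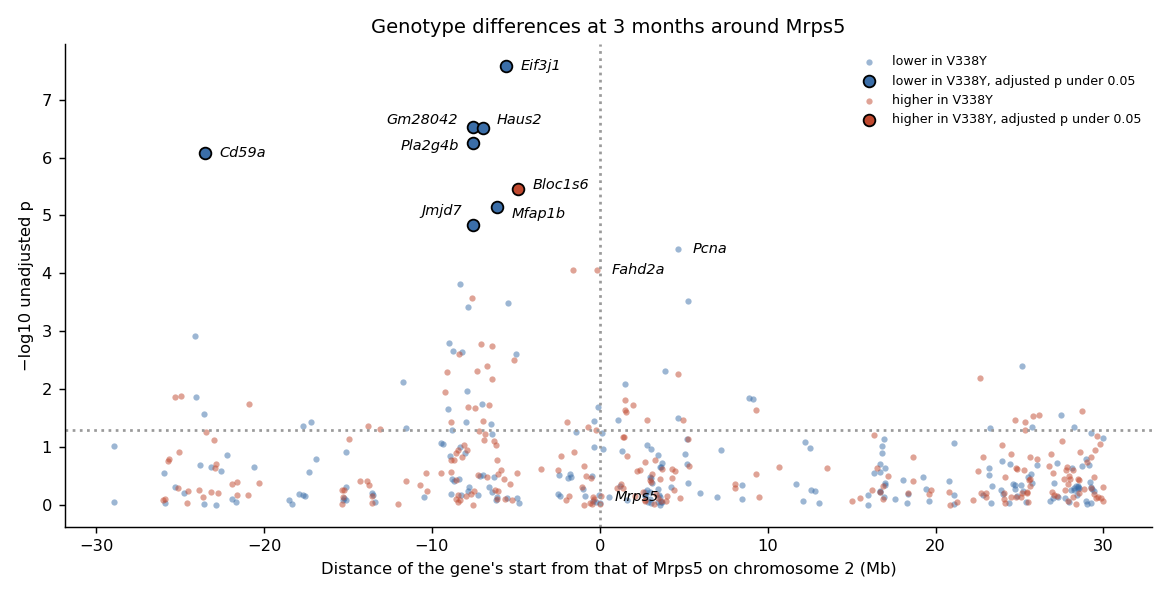
Each point is a gene tested within 30 Mb of Mrps5 on chromosome 2, placed by the distance of its start from that of Mrps5 (Mb). The vertical axis is the −log10 of its unadjusted p for V338Y against wild type at 3 months. The share of genes with an unadjusted p under 0.05 was 17.1% within 5 Mb and 33.0% from 5 to 10 Mb. It was 3.73% beyond 30 Mb, where genes are not drawn. The 8 called genes are outlined.

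Some genes varied between mice of one genotype in a stepwise manner. They were chosen after their values were seen, as were Pik3c3 and Trpc6, which differed between the groups without such steps. Pla2g4e, a cytosolic phospholipase A2 gene 7.42 Mb from Mrps5, was at 4.41, 8.47, 27.3 and 25.7 CPM in wild type and at 44.7, 48.3, 55.3 and 45.4 CPM in V338Y. Wild-type mice 9 and 10 were low and 11 and 12 lay between them and the V338Y mice, so that the spread within wild type left a log2 fold change of 1.54 with an interval of 0.32 to 2.76 (edgeR adjusted p = 0.926). At 19 months the wild-type mean was 5.65 ± 0.333 CPM (SD, n = 4) and the log2 fold change was 2.82.

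Bub1b, a spindle checkpoint kinase gene 8.99 Mb from Mrps5, was at 5.67, 2.44, 0.638 and 2.64 CPM in wild type and at 0.390, 0.670, 0.517 and 0.183 CPM in V338Y. Wild-type mouse 11 fell within the V338Y range, and the gene did not pass the adjusted threshold (log2 fold change -2.59, edgeR adjusted p = 0.845). At 19 months the log2 fold change was -3.46. Gm6969, on chromosome 12, was on in wild-type mice 9 and 12 (8.94 and 8.90 CPM) and in V338Y mice 13 and 15 (9.69 and 8.50 CPM). It was near absent in wild-type mice 10 and 11 (0.135 and 0.182 CPM) and in V338Y mice 14 and 16 (0.0515 and 0.244 CPM), so both states occurred in both genotypes.

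Wdfy1, an endosomal adaptor gene on chromosome 1, was at 21.0, 22.0, 22.8 and 23.2 CPM in wild type and at 45.7, 48.0, 45.4 and 23.6 CPM in V338Y. V338Y mouse 16 stood beside the wild-type mice while the other V338Y mice were higher, with a log2 fold change of 0.87 (edgeR adjusted p = 0.848) that passed the threshold once mouse 16 was left out. At 19 months Wdfy1 was lower in V338Y, with a log2 fold change of -0.37. Pik3c3, the class III phosphoinositide kinase on chromosome 18, was at 63.3, 68.8, 67.4 and 66.8 CPM in wild type and at 47.2, 51.1, 48.7 and 59.5 CPM in V338Y (log2 fold change -0.37, edgeR adjusted p = 0.256). The cation channel gene Trpc6 was at 30.5, 19.98, 27.2 and 31.7 CPM in wild type and at 8.65, 10.5, 14.9 and 18.9 CPM in V338Y (log2 fold change -1.04, edgeR adjusted p = 0.848). The groups did not overlap for Pik3c3 or Trpc6. Pik3c3 passed the adjusted threshold in 6 of 18 alternative settings and Trpc6 in 3 of 18.

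The V338Y libraries were more unlike each other than the wild-type libraries. The biological coefficient of variation, edgeR's measure of the spread of a gene between mice, was 5.57% over the wild-type mice and 13.05% over the V338Y mice. Transcripts of the cerebellum were among those that varied. Gabra6, the GABA receptor subunit of cerebellar granule cells, was at 61.2, 109, 97.8 and 119 CPM in wild type and at 135, 1.44, 182 and 121 CPM in V338Y. V338Y mouse 14 stood apart from all other mice.

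The same mouse was low across the whole marker list. The summed level of 27 cerebellum markers was 2609 to 3806 CPM in the wild-type mice, 1527 CPM in V338Y mouse 14 and 3976 to 5553 CPM in the other V338Y mice. The granule cell adhesion gene Fat2 was at 4.02 CPM in mouse 14, Cbln3 at 2.83 CPM and the Purkinje cell gene Pcp2 at 1.85 CPM. No cerebellum marker passed the threshold between the genotypes, and 0 of 27 had an unadjusted p under 0.05 (edgeR). Their median log2 fold change was 0.15, with 23 of 27 above 0. Without V338Y mouse 14, 15 of the 27 had an unadjusted p under 0.05, all higher in V338Y, where 9.94% of all genes reached that level. None of the 27 passed the adjusted threshold there, and the median was 0.44. Without V338Y mouse 15 the median was -0.12. The direction also turned with the measure, since the mean of the summed level was 3837 CPM in V338Y and 3354 CPM in wild type, while the mean log2 CPM of the list was 5.03 and 5.27. In bulk tissue, fewer cells of a type and less RNA per cell cannot be told apart.

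Leaving out this mouse changed the number of small p-values more than the calls. Without V338Y mouse 14, the spread over the V338Y mice was 10.4%, and 1590 genes had an unadjusted p under 0.05 in place of 815, with 11 genes past the adjusted threshold. These 11 included all 10 genes described above and Itpka. With the cerebellum marker level as a covariate, 1426 genes reached an unadjusted p under 0.05 and the adjusted threshold was passed by 15, all 10 again among them. Without wild-type mouse 12, 6 genes passed, namely Eif3j2, Eif3j1, Gm28042, Pla2g4b, Haus2 and Cd59a.

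**Figure D3:**
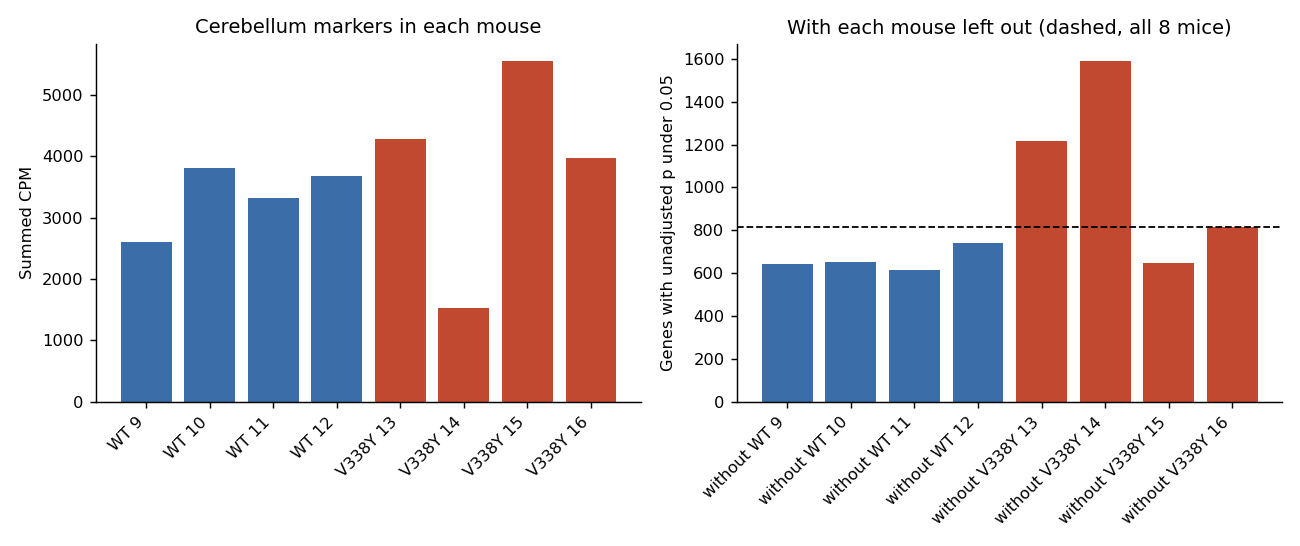
Left, summed expression (CPM) of 27 cerebellum markers in each wild-type (WT, blue) and V338Y (red) mouse; right, the number of genes with an unadjusted p under 0.05 when that mouse is left out, with the dashed line at the 815 of all 8 mice. V338Y mouse 14 is lowest at 1527 CPM, and the count is highest, 1590, without it.

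The mitochondrial ribosome, to which MRPS5 belongs, was measured almost in full. Of its 82 protein genes, 80 were tested and none passed the adjusted threshold. An unadjusted p under 0.05 was reached by 3 (3.75%, against 5.02% of all genes), of which 1 was higher and 2 were lower. The median log2 fold change was -0.018, beside 0.0048 over all genes tested, and the interval of each of the 80 genes lay within a 1.5-fold change. Among the small subunit genes, Mrps12 was at 31.9, 31.2, 34.0 and 31.6 CPM in wild type and at 29.3, 26.7, 27.0 and 25.9 CPM in V338Y, without overlap (log2 fold change -0.24, edgeR adjusted p = 0.848). Mrps18c was at 10.02 ± 0.551 CPM in wild type and 12.4 ± 1.79 CPM in V338Y (mean ± SD, n = 4, log2 fold change 0.31). Among the large subunit genes, Mrpl18 had a log2 fold change of -0.18 and Mrpl37 one of 0.14.

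Other genes that serve mitochondrial gene expression were near 0 as groups. The median log2 fold change was -0.011 for 19 mitochondrial translation factors, -0.020 for 17 mitochondrial aminoacyl-tRNA synthetases and 0.00009 for 25 genes of mitochondrial DNA maintenance and transcription. Rars2, the mitochondrial arginyl-tRNA synthetase, was at 17.4 ± 0.793 CPM in wild type and 20.2 ± 1.31 CPM in V338Y (log2 fold change 0.21, edgeR adjusted p = 0.926), and Iars2, the isoleucyl counterpart, had a log2 fold change of -0.13. Lars2 was at 34.1, 9.89, 12.7 and 11.4 CPM in wild type and at 11.4, 11.4, 144 and 22.6 CPM in V338Y. Its log2 fold change of 1.52 rested on V338Y mouse 15 and was -0.11 without that mouse.

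The messages that mitochondrial ribosomes translate did not pass the threshold either, where they could be tested. Of 13 protein-coding genes of the mitochondrial genome, 8 had enough counts to be tested, and their median log2 fold change was -0.064. The rest stayed below the count filter for a reason that was not tested, and this median does not cover them. With no count filter 11 could be fitted, with a median of -0.059. mt-Co1, the catalytic subunit of complex IV, was at 6603, 7572, 7230.2 and 6931 CPM in wild type and at 6874, 7138, 6235 and 6863 CPM in V338Y, with overlapping groups. mt-Nd1 was at 797 ± 51.2 CPM in wild type and 803 ± 10.3 CPM in V338Y. The only one with an unadjusted p under 0.05 was mt-Nd6, encoded on the other strand, at 10.95, 16.1, 15.1 and 12.4 CPM in wild type and 9.49, 10.9, 9.31 and 13.1 CPM in V338Y (log2 fold change -0.36, edgeR adjusted p = 0.926). mt-Nd5 was at 243 CPM in V338Y mouse 15 and between 82.7 and 152 CPM in the other mice, and mouse 15 was thus high in both mt-Nd5 and Lars2.

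Nuclear OXPHOS genes were closely measured and near 0. None of the 76 genes had an unadjusted p under 0.05, beside 5.02% of all genes. Their median log2 fold change was -0.029, with 23 genes above and 53 below 0, and 74 of the 76 intervals lay within a 1.5-fold change. By complex, the median was -0.033 for the 36 genes of complex I, -0.029 for the 4 of complex II, -0.029 for the 9 of complex III, -0.033 for the 12 of complex IV and -0.012 for the 15 of ATP synthase. The complex I gene Ndufa8 was at 51.2 ± 1.51 CPM in wild type and 56.7 ± 5.06 CPM in V338Y (mean ± SD, n = 4). Without V338Y mouse 15, the median over the OXPHOS genes was -0.0027 and 37 genes lay above and 39 below 0. At 19 months the median over these genes was 0.10.

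The pathways that feed the respiratory chain gave like values. The median log2 fold change was -0.012 for 24 genes of the TCA cycle and pyruvate entry, -0.020 for 17 glycolysis genes and 0.025 for 29 genes of fatty acid oxidation. Ogdh, a subunit of the oxoglutarate dehydrogenase complex, was at 269.6, 262, 269.7 and 271 CPM in wild type and at 286, 278, 302 and 283 CPM in V338Y, without overlap but with a log2 fold change of only 0.10 (edgeR adjusted p = 0.926). Dld, which serves the same complex, had a log2 fold change of -0.11, Hk2 one of 0.18 and Ldha one of -0.11. Etfb, a subunit of the electron transfer flavoprotein, was at 20.6 ± 1.199 CPM in wild type and 23.8 ± 1.39 CPM in V338Y (log2 fold change 0.21, edgeR adjusted p = 0.926).

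Genes of protection against reactive oxygen species had a median log2 fold change of -0.020 over 25 genes. Catalase (Cat), on chromosome 2 and 24.1 Mb from Mrps5, was the only one with an unadjusted p under 0.05. It was at 37.5, 41.9, 35.5 and 37.6 CPM in wild type and at 31.4, 31.4, 29.6 and 32.5 CPM in V338Y, without overlap (log2 fold change -0.29, edgeR adjusted p = 0.746). The median was 0.021 for 18 genes of mitochondrial dynamics, mitophagy and biogenesis, among which the coactivator gene Ppargc1a had a log2 fold change of 0.25 and the mitophagy receptor gene Fundc1 one of -0.19.

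Genes of the RT-qPCR of the older mice were examined in the 3-month counts. Cox11, an assembly factor of complex IV, was at 14.6 ± 1.54 CPM in wild type and 15.4 ± 1.76 CPM in V338Y, and Atp5s, a coupling factor of ATP synthase, at 10.6 ± 1.67 and 10.4 ± 1.22 CPM. Mpc1, a subunit of the pyruvate carrier, was at 64.4 ± 3.93 and 59.5 ± 3.36 CPM, and Prdx5, a peroxiredoxin, at 162 ± 4.28 and 169 ± 12.5 CPM (mean ± SD, n = 4). Their log2 fold changes of 0.08, -0.04, -0.11 and 0.06 were all within the spread between mice, and none passed the threshold (lowest edgeR adjusted p = 0.926, for Mpc1). For Mpc1 the difference between both ages was 0.35 on the log2 scale (edgeR adjusted p = 0.136).

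**Figure D4:**
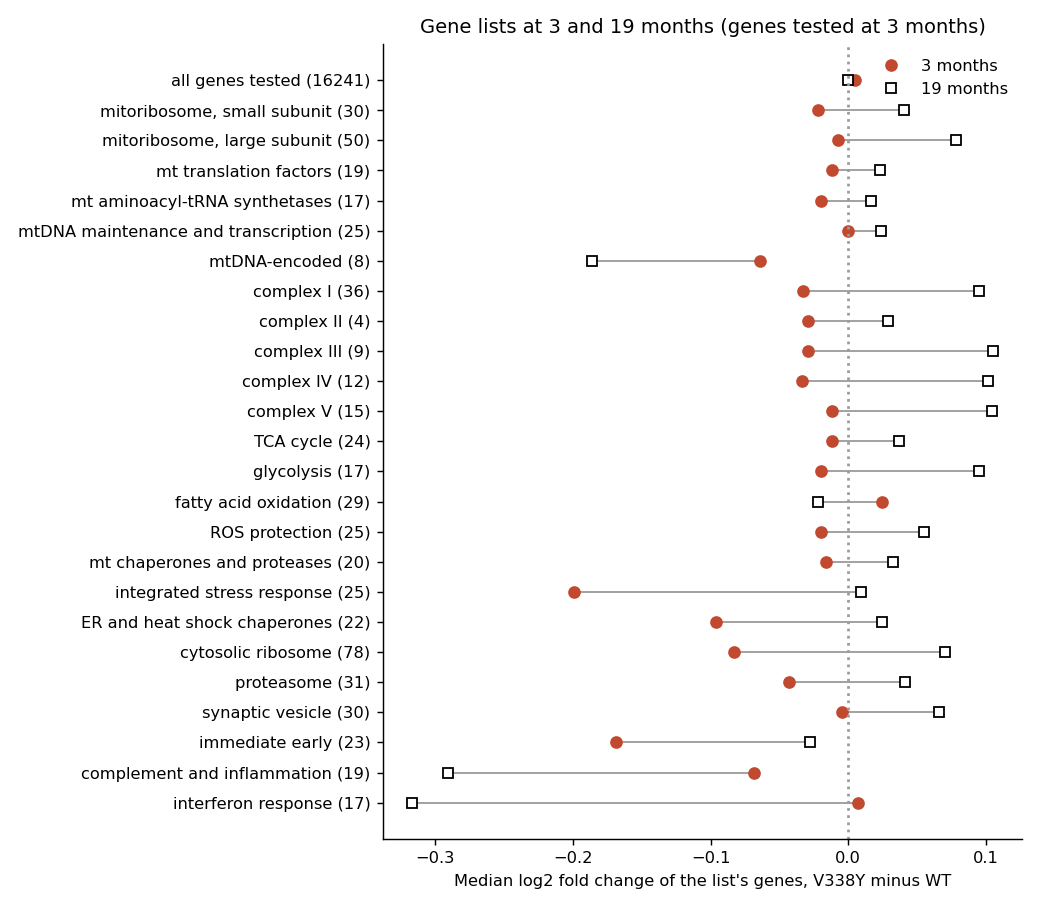
Median log2 fold change (V338Y minus wild type) of each gene list at 3 months (red circles) and at 19 months (open squares), joined by grey lines, with the number of genes tested at 3 months beside each name. At 3 months complex I lies at -0.033 and the small subunit of the mitochondrial ribosome at -0.022, while the integrated stress response lies at -0.20.

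Genes of the integrated stress response mostly had lower values in V338Y, although none passed the adjusted threshold. Of 25 genes tested, 12 had an unadjusted p under 0.05 and all 12 were lower (48.0%, against 2.65% of all genes lower at that level). The median log2 fold change was -0.20, and 23 of 25 lay below 0, whereas 7852 of all 16241 genes did. The mean log2 CPM of the list was 4.40, 4.31, 4.34 and 4.28 in the wild-type mice and 4.13, 3.97, 3.98 and 4.23 in the V338Y mice. All V338Y mice were thus below all wild-type mice, with mouse 16 close to them.

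Atf4, the transcription factor at the head of the response, was at 143, 136, 142 and 142 CPM in wild type and at 127, 113, 102 and 127 CPM in V338Y (log2 fold change -0.26, edgeR adjusted p = 0.848). Asparagine synthetase (Asns), a target of ATF4, was at 129, 134, 130.1 and 126 CPM in wild type and at 110.4, 111, 101 and 122 CPM in V338Y (log2 fold change -0.22, edgeR adjusted p = 0.848). Neither gene had overlapping groups. Sesn2, a stress-induced inhibitor of mTORC1 signalling, was at 14.6, 20.05, 17.3 and 19.7 CPM in wild type and at 12.7, 13.9, 14.2 and 14.4 CPM in V338Y (log2 fold change -0.39, edgeR adjusted p = 0.848). The wild-type mice of Sesn2 were the more variable ones.

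Chac1, which degrades glutathione, had a log2 fold change of -0.61 and lies on chromosome 2, 8.24 Mb from Mrps5, among the genes that differ there. The serine synthesis gene Psph had a log2 fold change of -0.32, without overlap. Ddit3, which encodes CHOP, was at 21.0 ± 1.87 CPM in wild type and 18.3 ± 2.48 CPM in V338Y (log2 fold change -0.19, edgeR adjusted p = 0.926), and Vldlr was at 119 ± 3.70 and 125 ± 15.8 CPM. Atf4, Asns, Psph and Ddit3 were chosen after their values were seen. The number of the 25 genes with an unadjusted p under 0.05 was 7 without wild-type mouse 9 and 7 to 14 over all alternatives, and the median lay between -0.24 and -0.18. At 19 months the median over the list was 0.010.

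**Figure D5:**
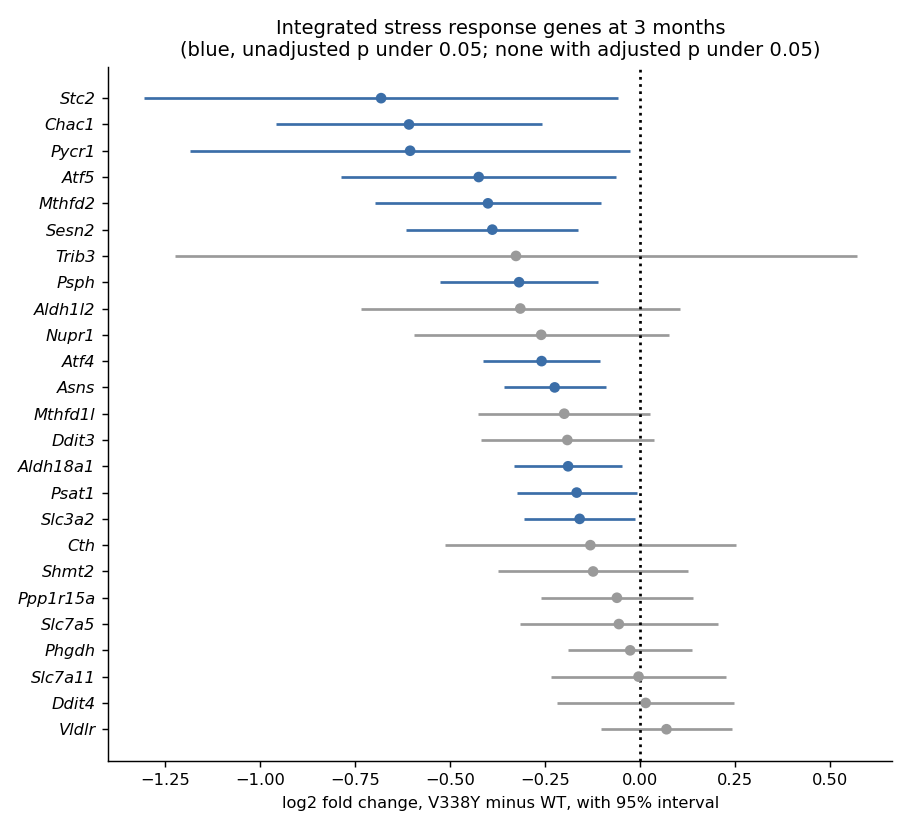
Log2 fold change (V338Y minus wild type, n = 4 mice each) at 3 months of the integrated stress response genes tested, with 95% intervals; blue marks the 12 genes with an unadjusted p under 0.05. Of 25 genes 23 lie below 0, and none passes the adjusted threshold.

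The chaperone and protease genes of mitochondria did not share this position. Their median log2 fold change was -0.016 over 20 genes, of which Hspd1, the mitochondrial HSP60, was at 158 ± 9.57 CPM in wild type and 142 ± 15.6 CPM in V338Y (log2 fold change -0.15, edgeR adjusted p = 0.926), and the AAA protease gene Afg3l1 had a log2 fold change of 0.21. Chaperones of the cytosol and the endoplasmic reticulum had a median of -0.096 over 22 genes, with 18 below 0. Dnajb1, a cochaperone of HSP70, was at 55.5, 39.96, 50.04 and 47.8 CPM in wild type and at 40.1, 44.8, 32.1 and 39.0 CPM in V338Y, with overlapping groups (log2 fold change -0.30). The chaperone median was -0.015 without V338Y mouse 15 and -0.022 without wild-type mouse 12.

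Cytosolic ribosomal protein genes lay slightly below 0. Of 78 genes, 73 lay below 0, with a median log2 fold change of -0.083. An unadjusted p under 0.05 was reached by 9, all lower (11.5%, against 2.65% of all genes lower at that level). Rpl13a was at 335, 329, 326 and 317 CPM in wild type and at 284, 303, 265 and 288 CPM in V338Y, without overlap (log2 fold change -0.20, edgeR adjusted p = 0.848). The summed level of the list was 9025 CPM in V338Y mouse 15 and 10348 to 11052 CPM in the other mice, and the median was -0.029 without that mouse. The number with an unadjusted p under 0.05 was 4 without wild-type mouse 9 or 10 and 14 without V338Y mouse 14. Of all genes, 3.96% reached that level without wild-type mouse 9, 4.02% without wild-type mouse 10 and 9.94% without V338Y mouse 14.

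Immediate early genes, which neurons transcribe after activity, had a median log2 fold change of -0.17 over 23 genes, with 21 below 0 and 3 with an unadjusted p under 0.05. Junb was at 39.2, 44.5, 70.1 and 56.7 CPM in wild type and at 43.1, 39.2, 36.2 and 32.3 CPM in V338Y, with overlapping groups. Klf4 was at 5.29 ± 0.391 CPM in wild type and 3.90 ± 0.435 CPM in V338Y, without overlap (log2 fold change -0.43, edgeR adjusted p = 0.926). Wild-type mice 11 and 12 had the highest mean level over the list, and the median was -0.11 without mouse 11 and -0.25 without wild-type mouse 10. The count of genes with an unadjusted p under 0.05 was 1 without V338Y mouse 16 and 6 without wild-type mouse 10. In these settings 5.08% and 4.02% of all genes reached that level.

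Genes of neuronal signalling were centred near 0. The median log2 fold change was -0.0047 for 30 synaptic vesicle genes, 0.047 for 31 GABA and glutamate receptor genes and 0.015 for 30 genes of the stress axis and monoamine receptors. Snap25, a SNARE protein of synaptic vesicles, 9.13 Mb from Mrps5 on chromosome 2, was at 1511, 1473, 1520.4 and 1441 CPM in wild type and at 1398, 1383, 1314 and 1139.5 CPM in V338Y, without overlap (log2 fold change -0.18, edgeR adjusted p = 0.926). Vamp2, its partner on the vesicle, was at 108 ± 5.95 CPM in wild type and 134 ± 34.6 CPM in V338Y. The receptor gene Grm3 had a log2 fold change of 0.18, Crh, the corticotropin-releasing hormone, one of -0.35 and Cnr1, the cannabinoid receptor, one of 0.21, and none passed the threshold.

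Clock genes had a median of 0.0039 over 17 genes, and 4 of them had an unadjusted p under 0.05 (23.5%, against 5.02% of all genes), 3 lower and 1 higher. Among them were Ciart, a repressor of the clock, with a log2 fold change of -0.38 and Npas2, an activator, with 0.30. Proteasome genes had a median of -0.043 over 31 genes and extracellular matrix genes one of 0.073 over 30 genes. Complement and inflammation genes had a median of -0.069 over 19 genes (0.016 without V338Y mouse 15), where the MHC class II gene H2-Ab1 was at 2.64, 1.96, 2.28 and 2.03 CPM in wild type and at 1.30, 0.979, 0.369 and 1.65 CPM in V338Y (log2 fold change -1.01, edgeR adjusted p = 0.926). Its groups did not overlap, at a level of few counts. A list of 41 metabolism genes, taken from the older mice of these data, had a median of -0.0039 at 3 months with none at an unadjusted p under 0.05, and of 0.12 at 19 months, where the choice of the list is not independent of the value.

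Some marker lists of brain regions had medians farther from 0 than the pathway lists. Of 8 thalamus markers, 4 had an unadjusted p under 0.05, all higher in V338Y (50%, against 2.37% of all genes), and the median log2 fold change was 0.35. Of the 8 markers, 6 lay above and 2 below 0, the lowest at -0.13. Prkcd, a kinase gene of thalamic neurons, was at 53.8, 65.2, 40.02 and 41.8 CPM in wild type and at 74.5, 95.2, 86.2 and 69.0 CPM in V338Y, without overlap (log2 fold change 0.69, edgeR adjusted p = 0.848). Plekhg1 was at 37.3, 29.7, 26.0 and 28.7 CPM in wild type and at 35.2, 52.6, 51.4 and 43.6 CPM in V338Y (log2 fold change 0.60). The transcription factor genes Tcf7l2 and Lef1, chosen after their values were seen, had log2 fold changes of 0.61 and 0.59. The summed thalamus level was 390.1 to 431 CPM in wild type and 436 to 477 CPM in V338Y, and the groups did not overlap.

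Markers of other regions gave smaller or opposite values. All 6 olfactory bulb markers had lower values in V338Y, with a median of -0.37 and 1 gene at an unadjusted p under 0.05 (16.7%, against 2.65% of all genes lower). That median was -0.22 without V338Y mouse 15. Of 14 hindbrain markers, 9 passed the count filter, 1 of them through wild type alone. With no count filter, 13 of the 14 had lower values in V338Y and the median was -0.73. Over the 9 the median was -0.66, and it was -0.31 without V338Y mouse 14 and -1.30 without V338Y mouse 16. The hindbrain list was carried by low counts, with Hoxb3 at 0.705 to 1.26 CPM in wild type and 0 to 0.610 CPM in V338Y, and its summed level was 10.5 CPM in V338Y mouse 14 and 27.1 to 46.0 CPM in the other mice. Doc2g, an olfactory bulb marker, had a log2 fold change of -0.50. The 11 striatum markers had a median of 0.12, with 8 above and 3 below 0. An unadjusted p under 0.05 was reached by 2 of them, both higher (18.2%, against 2.37% of all genes). Among the higher ones, Pde10a was at 217 ± 6.50 CPM in wild type and 256 ± 31.96 CPM in V338Y, and Adora2a at 23.5 ± 2.26 and 27.9 ± 2.08 CPM. Drd1, a lower one, was at 42.1 to 49.6 CPM in wild type and 41.7 to 46.1 CPM in V338Y. These marker values differed between the groups beside the gene differences above, and their part in those differences was not tested.

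Among cell type markers, Opalin, a membrane protein of oligodendrocytes, was at 11.8, 10.8, 9.39 and 10.7 CPM in wild type and at 15.5, 14.2, 13.1 and 14.8 CPM in V338Y (log2 fold change 0.44, edgeR adjusted p = 0.547). Ermn, also of oligodendrocytes, went the other way at 89.1 ± 5.49 CPM in wild type and 71.7 ± 10.4 CPM in V338Y. The medians were -0.010 for 11 oligodendrocyte, -0.048 for 11 astrocyte (0.029 without V338Y mouse 14), -0.047 for 11 microglia, -0.042 for 10 neuron and 0.0069 for 10 endothelium markers. Rgs5, a pericyte gene, had a log2 fold change of -0.33 within a list at -0.00035.

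The genotype effect at 3 months was set against that at 19 months in a model over all 16 mice. Sex may differ between the ages, as given above, so age and sex cannot be told apart in this model. Of 16831 genes, 9 had a difference between both ages that passed the adjusted threshold (0.0535%), and none of these 9 was among the 10 genes called at 3 months. They were Gbp4, Gbp7, Igtp, Irgm2 and Tgtp1, interferon-induced GTPases, Tap1, the peptide transporter of MHC class I, Naaa, an acid amidase, Fmod, a matrix proteoglycan, and Ptprv, a receptor phosphatase. They were selected by this test and chosen after their values were seen.

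At 3 months none of these 9 passed the threshold. Gbp4 was at 2.14, 1.96, 1.09 and 2.56 CPM in wild type and at 2.54, 1.803, 2.66 and 2.38 CPM in V338Y, with overlapping groups and a log2 fold change of 0.27. At 19 months it was at 31.97 ± 2.48 CPM in wild type and 9.44 ± 0.398 CPM in V338Y (mean ± SD, n = 4). Gbp4 thus stood at low levels in both genotypes at 3 months, and the difference of its genotype effect between both ages was -2.02 on the log2 scale (edgeR adjusted p = 5.63e-05). Tap1 was at 2.93 ± 0.520 CPM in wild type and 3.85 ± 0.358 CPM in V338Y at 3 months, and at 16.5 ± 1.42 and 9.9998 ± 1.28 CPM at 19 months. The interferon response list had a median log2 fold change of 0.0069 over 17 genes at 3 months, none with an unadjusted p under 0.05, and one of -0.32 at 19 months.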

How the data were processed

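RNA-Seq libraries of 4 wild-type and 4 V338Y mice at 3 months were analysed, with the 8 libraries of 19 months for comparison. The expected counts per gene were deposited by the authors without normalization. The paper names RSEM, Ensembl 75 and GRCm37, whereas the submitters' processing notes list bcl2fastq 1.8.4, STAR 2.4.2a, featureCounts and GRCm38, so the counter and build of the counts are uncertain. The values were whole numbers of at most 4 significant digits (the 1495 largest all end in 0). The kit is stranded, and the strand setting of the counting is not given in the sources used here. Of 39179 identifiers, 37607 were matched by Ensembl identifier to a symbol and position in GENCODE M21 (GRCm38).

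The filter kept a gene that reached 10 counts in 2 or more mice of either genotype. After TMM normalization, edgeR 4.0.16 in R 4.3.3 was run with its robust quasi-likelihood test and no covariate, and genes were called at 0.05 after Benjamini-Hochberg adjustment. The age comparison was an interaction in a fit of all 16 libraries. CPM use TMM-scaled library sizes, and log2 CPM a prior count of 2. CPM are not divided by gene length and do not rank genes. The floor of 3 counts covers counting error only. For the summed Eif3j copies and the summed Mfap1 copies, a two-sided exact permutation test was used. The scripts were tested on simulated data. Alternatives were other edgeR tests, DESeq2 1.42.0, other normalizations and filters, all 16 libraries, thinned libraries, a cerebellum covariate and each mouse left out.

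Genes named are Mrps5, all genes past the threshold, genes within 20 Mb of Mrps5 with an unadjusted p under 0.001, the RT-qPCR genes, defining markers and up to 2 list members in each direction with the smallest p. Some genes that these rules name are not reported here. The gene lists and the groups were chosen with earlier results of these data known, so lists are given by counts and medians without a test of their own.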

Additional observations from a re-analysis of the deposited data

Results flagged for a closer look

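In 306 groups of 4 mice examined for a value far from the other 3 (by Dixon's test), 20 were past the limit (6.54%), where chance alone gives about 1 in 20 groups. Single mice stood apart in CPM for several genes. In wild type, Bloc1s6 was at 24.3 in mouse 10 (others 21.0 to 21.2), Gm3650 at 0.0912 in mouse 11 (others 0), Mrpl18 at 38.5 in mouse 9 (35.5 to 36.0), Lars2 at 34.1 in mouse 9 (9.89 to 12.7) and Atp5a1 at 1016 in mouse 12 (1105 to 1120.3). Ogdh was at 262 in mouse 10 (269.6 to 271), Atf4 at 136 in mouse 10 (142 to 143), Psph at 19.6 in mouse 9 (16.7 to 17.2), Ciart at 13.7 in mouse 9 (17.1 to 17.4) and Tgtp1 at 0.529 in mouse 12 (0.252 to 0.273).

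In V338Y, Spint1 was at 1.03 CPM in mouse 15 (others 1.44 to 1.496), Lars2 at 144 in mouse 15 (11.4 to 22.6), Dld at 112 in mouse 16 (101 to 102), Afg3l1 at 27.0 in mouse 14 (32.6 to 33.7) and Wdfy1 at 23.6 in mouse 16 (45.4 to 48.0). Among marker lists, the mean log2 CPM of cerebellar granule cell markers was 2.68 in V338Y mouse 14 and 5.83 to 6.29 in the other V338Y mice, and that of all cerebellum markers was 2.91 against 5.55 to 6.02. The oligodendrocyte precursor list was at 4.76 in V338Y mouse 15 (others 5.02 to 5.06), the astrocyte list at 7.53 in wild-type mouse 9 (7.61 in each of the others) and the pituitary list at 1.25 in wild-type mouse 10 (0.491 to 0.554).

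The genotype effect differed between 19 and 3 months, in the interaction test over all 16 mice (edgeR, adjusted p), for 9 genes, each with a value above 0 at 3 months and below 0 at 19 months. On the log2 scale the difference, 19 minus 3 months, was -2.02 for Gbp4 (adjusted p = 5.63e-05), -0.81 for Gbp7 (0.0113), -1.4996 for Igtp (0.0136), -1.35 for Irgm2 (0.0324) and -2.52 for Tgtp1 (0.0136). It was -1.09 for Tap1 (0.0231), -1.18 for Ptprv (0.0324), -0.61 for Naaa (0.0217) and -0.87 for Fmod (0.0324). The part of tissue composition in these values was not tested, and age and sex cannot be told apart in them.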

How the results depend on the processing

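No paired analysis was possible because the 3-month groups share no mouse number. The 10 genes past the threshold at 3 months became 26 with edgeR's likelihood-ratio test, 28 with its exact test, 26 with DESeq2, 20 without a count filter and 23 with all 16 libraries in the fit, and all 10 remained in each of these. They became 15 with the cerebellum covariate, with all 10 kept, 8 with thinned libraries, where Jmjd7 and Gm3650 were lost, and 8 with a minimum of 10 counts in every library, where Eif3j2 and Gm3650 were not tested. They became 6 to 13 with one mouse left out, 6 without wild-type mouse 12 and 13 without V338Y mouse 16. Genes with an unadjusted p under 0.05 numbered 1379 with all 16 libraries, 1426 with the cerebellum covariate and 617 to 1590 with one mouse left out. Eif3j1, Gm28042, Haus2, Pla2g4b and Cd59a were called in every setting run. At 19 months, leaving out one mouse gave 287 to 611 genes. The interaction with age gave 37 genes with DESeq2 and 1 to 57 with one mouse left out (1 without wild-type mouse 10, 57 without V338Y mouse 14, both of 3 months). The mean log2 CPM of cerebellum markers differed by -0.24, V338Y minus wild type, and by -0.57 to 0.47 with one mouse left out, above 0 only without V338Y mouse 14, whereas the median log2 fold change of these markers was 0.15 with all 8 mice.

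Log2 fold changes of 7 named genes changed sign in 20 of 1751 values under the alternatives, and the cause was not tested. The log2 fold change of Mrps5 at 3 months was -0.0025 with all 16 libraries, -0.0052 with the covariate and -0.020 to 0.051 with one mouse left out. That of Gm6969 was -0.23 with the covariate and lay between -0.65 and 0.79 with one mouse left out. With one mouse left out, Atp5s lay between -0.13 and 0.038, Lars2 between -0.11 and 2.05, mt-Nd1 between -0.018 and 0.051, Vldlr between -0.0017 and 0.15 and Irgm2 between -0.030 and 0.28. Of the other values of named genes, 1645 kept their direction and side of the threshold, 69 gained a call and 17 lost one. Medians of 32 of the 54 gene lists changed sign under at least 1 alternative, in 102 of 972 values, each from a median of at most 0.19 in size. Without V338Y mouse 15 the median was 0.018 for glycolysis, 0.018 for complex IV and 0.0039 for the small subunit of the mitochondrial ribosome. Counting depth limited genes below a few CPM, such as Gm3650.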
